A study of Homo sapiens with 4 samples.

Results

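The 34 genes described here encode the enzymes and regulators that build cholesterol and fatty acids, and they were chosen by name, for their known roles, from the 60671 genes of the table. Of these, 22 belong to the cholesterol branch (7 of the mevalonate steps, 11 from squalene to cholesterol and 4 of sterol sensing) and 12 to the fatty acid branch (4 of synthesis, 6 of elongation and desaturation and 2 of activation). All 34 passed the filter for testing, a mean of at least 1 TPM (a level scaled to transcript length and to the library's total) over the 4 libraries, as did 12319 genes in all.

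H9, an established human embryonic stem cell line, was profiled by poly(A)+ RNA-seq in 2 control libraries and 2 libraries labelled as a knockout of CFIm25 with overexpression of 3Flag-CFIm25, called KO+OE here. CFIm25, encoded by NUDT21, is a subunit of a complex that helps select polyadenylation sites. In the study, the gene was edited with an episomal CRISPR/Cas9 vector, the edited lines were grown from single-cell clones, and the tagged cDNA was returned on a lentiviral plasmid driven by the EF1 promoter. The study set its re-expressing cells against mock cells that received the empty CRISPR vector, but it also kept plain H9 cells, and the labels of the control libraries do not say which they are. The tagged cDNA was returned to 1 clone, CFIm25-m3, whose edited gene still makes a shortened protein by the study's account, and the series title speaks of a knockdown where the sample labels say KO. All cells were kept in mTeSR medium on Matrigel. The study selected its CRISPR cultures on puromycin before it picked clones, and no further treatment is named for these libraries. No library of the edited cells without the returned cDNA was analysed here. The comparison therefore asks whether edited cells with CFIm25 put back differ from control cells in these genes. Nothing in the labels says whether the 2 libraries of a group came from separate cultures, so the tests measure only the spread between libraries, which may be technical.

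Cells build cholesterol from acetyl-CoA through mevalonate, isoprenoid diphosphates, squalene and a series of sterols, and they build fatty acids from the same acetyl-CoA through malonyl-CoA. Both routes are switched by the transcription factors SREBP1 and SREBP2, which leave the endoplasmic reticulum with their escort SCAP when sterols are low and stay there, held by INSIG proteins, when sterols are high. Rapidly dividing cells such as pluripotent stem cells need both products for new membranes.

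NUDT21 was at 161 and 152 TPM in control and 162 and 157 TPM in KO+OE, so its total RNA did not separate the groups. Reads of the edited gene and of the returned cDNA are not separated in this table. The stem cell markers were abundant in every library, with POU5F1 between 2164 and 2212 TPM and LIN28A, SOX2, NANOG, DPPA4 and L1TD1 all above 15.8 TPM. Of 9 germ layer markers, 1 reached a mean of 1 TPM (GATA6, 4.35 to 8.39 TPM). Among cell types known for making fat or cholesterol, none of 4 hepatocyte and visceral endoderm markers and none of 4 adipocyte markers reached it, with ALB, TTR, ADIPOQ, FABP4 and CIDEC at 0 in all libraries. COL1A1 and COL1A2 of the 4 fibroblast markers were expressed (summed list, 67.2 to 68.8 TPM), while LUM was at 0 and DCN at or below 0.08 TPM. In bulk samples such as these, fewer cells of a type and less RNA per cell cannot be told apart. Distances between libraries of 1 group were 0.202 for control and 0.196 for KO+OE, against 0.199 to 0.202 between groups (mean absolute log2 difference over the genes tested, on the log2(TPM + 1) scale), so the libraries did not fall into 2 groups.

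The promoters of the pathway are shown first, because the binding motifs of SREBP and of its partner NF-Y are the sequence features by which these genes are known. RefSeq promoters (assembly GRCh38.p14, 250 bases before to 50 after each start) were found for 30 of the 34 genes, 40 promoters in all, and not for SQLE, FDFT1, ACAT2 and FASN. A sterol regulatory element of the letters TCACNCCAC, searched on both strands, was in 1 of the 30 genes, SREBF2, the gene of SREBP2 itself, and in 2.5% of the promoters against 1.13% of all 35116. The NF-Y box CCAAT, searched on both strands, was in 23 of the 30 genes and in 67.5% of the promoters, against 34.6% of all promoters and 34.5% of those of the genes tested. The Sp1 box GGGCGG, also on both strands, was in 28 genes and in 85% of the promoters, against 44.95% of all and 67.6% of those of the genes tested. Matches of different motifs were counted separately and may share bases. The window around the element of SREBF2, on the plus strand at chr22:41832962-41832990 with its first base 133 bases before the start, reads as follows, with the element in capitals.

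SREBF2: tgacgcgccaTCACCCCACgcaccgcttc

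The genes with the most CCAAT boxes were MVK and NSDHL with 5 each and MSMO1 with 4, and EBP, FDPS, IDI1 and MVD had 3 each. For 5 of these genes, the box closest to the start is shown in capitals, so that its neighbourhood can be compared. These lie at chr12:109573736-109573764 on the minus strand for MVK, chrX:152830967-152830995 on the plus strand for NSDHL, chr4:165327623-165327651 on the plus strand for MSMO1, chrX:48521766-48521794 on the minus strand for EBP and chr16:88663160-88663188 on the minus strand for MVD, at 46, 84, 34, 30 and 85 bases before the start.

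MVK: acttcaggccagCCAATcagagcgcgcga
NSDHL: cgccgagctgggCCAATcctcttggtgga
MSMO1: agctctcgcaggCCAATaacgacaggacg
EBP: ttacggagcgagCCAATggtgaagcgaag
MVD: ggctcgcacgggCCAATcctgtggtagcg

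All 5 boxes stand upstream of the start site. A match is a description of letters and not a measured binding site. Only these exact letters inside the promoter windows were searched. A gene without a match may hold a variant of the motif or a site elsewhere, which was not tested.

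The synthesis genes differed far more in level among themselves than between libraries. Their mean levels ran from 2.17 TPM (ACSL4) to 708 TPM (FDFT1), with 10 genes at 100 TPM or more, 17 between 10 and 100 TPM and 7 under 10 TPM. Their median was 29.1 TPM against 7.77 TPM over all genes tested, and 28 of the 34 lay above that median. FDFT1, FASN, FDPS and FADS2 together made up 55.1% of the summed level. In 20 of the 34 genes the highest of the 4 libraries was less than 1.2 times the lowest, and in 4 genes it was over 1.5 times the lowest, against 45.9% and 24.6% of all genes tested. These shares were not matched for level. The control libraries differed by a median log2 of 0.315 in the 5 synthesis genes at 1 to 5 TPM (0.189 in all genes there). It was 0.186 for the 16 at 5 to 50 TPM (0.102) and 0.027 for the 13 above (0.044). Between the KO+OE libraries these were 0.18 (0.18), 0.083 (0.10) and 0.054 (0.049). Beside genes of like level, the synthesis genes were thus not steadier throughout. Along the order of levels, 20 of the 33 neighbouring pairs overlapped in their libraries, so most neighbours could not be placed in order. The 6 highest genes, FDFT1, FASN, FDPS, FADS2, SCD and ACAT2, did not overlap with each other.

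**Figure D1:**
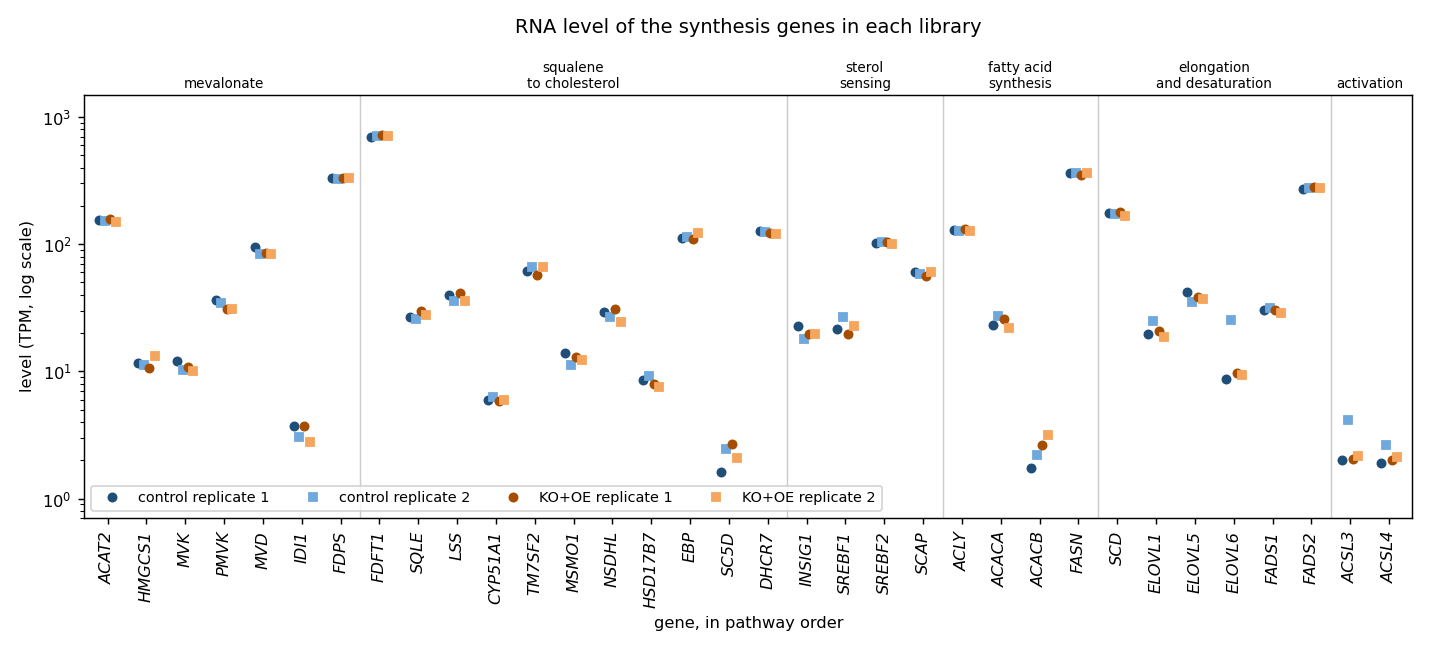
RNA level in TPM (log axis) of the 34 synthesis genes in each of the 4 libraries, in the order of the pathway; each point is 1 library. The 4 points of most genes stand side by side at about the same height, whereas ELOVL6 and ACSL3 have 1 high point, control replicate 2 (25.5 and 4.14 TPM).

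The mevalonate steps ranged from 2.81 to 333 TPM. ACAT2, the cytosolic thiolase that joins 2 acetyl-CoA, was at 154 and 152 TPM in control and 157 and 149 TPM in KO+OE. HMGCS1, which adds a further acetyl group, was at 11.6 and 11.2 TPM in control and 10.7 and 13.2 TPM in KO+OE. In both genes the values of the groups overlapped, with the highest and the lowest library both in KO+OE. The first kinase of mevalonate, MVK, was measured at 12.1 and 10.2 TPM in control and 10.8 and 10.1 TPM in KO+OE. Its follower PMVK, phosphomevalonate kinase, was at 36.2 and 34.5 TPM in control and 31.1 and 30.8 TPM in KO+OE. PMVK was thus lower in both KO+OE libraries than in either control library, while MVK overlapped. MVD, the decarboxylase that yields isopentenyl diphosphate, stood at 95.2 and 83.8 TPM in control against 85.7 and 83.8 TPM in KO+OE. IDI1, the isomerase of that product, was the least abundant of these genes, at 3.75 and 3.07 TPM in control and 3.69 and 2.81 TPM in KO+OE. FDPS, which joins isoprene units to farnesyl diphosphate, was the most abundant, at 329 and 323 TPM in control and 333 and 332 TPM in KO+OE. For FDPS the KO+OE libraries were both above the control libraries, but the closest libraries of the groups were 329 and 332 TPM. Summed over the 7 genes, the levels were 642 and 617 TPM in control and 632 and 622 TPM in KO+OE, so the groups overlapped.

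PMVK had the lowest p of the 34 genes. Its log2 fold change on the log2(TPM + 1) scale was -0.18 ± 0.057 (SE, n = 2 per group), with a 95% confidence interval of -0.33 to -0.04. By limma its unadjusted p was 0.0227 and its p adjusted over the 12319 genes 0.928, so the difference did not pass. Its unadjusted p was above 0.05 without control replicate 1 and without either KO+OE library, reaching 0.102, while its log2 fold change with any 1 library left out stayed between -0.22 and -0.15. Those fits set 1 library against 2, have 1 residual degree of freedom and assume that the lone library varies like the others.

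From squalene on, the levels ran from 1.62 to 722 TPM, the widest span of any step. FDFT1, squalene synthase and the first enzyme committed to sterols, had the highest level of all 34 genes and was above 98.6% of the genes tested, at 699 and 702 TPM in control and 722 and 708 TPM in KO+OE. SQLE, squalene epoxidase, was at 26.8 and 25.9 TPM in control and 29.8 and 28.0 TPM in KO+OE. Both were higher in each KO+OE library than in each control library, and the ratio of FDFT1 to SQLE stayed between 24.2 and 27.1. LSS, which closes the rings to lanosterol, was at 40.1 and 36.1 TPM in control and 41.5 and 35.5 TPM in KO+OE. CYP51A1, the demethylase of lanosterol, was at 5.91 and 6.32 TPM against 5.83 and 5.91 TPM. The groups overlapped in LSS and met at 5.91 TPM in CYP51A1.

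The ring reductase TM7SF2 was measured at 62.0 and 66.5 TPM in control and 57.2 and 65.9 TPM in KO+OE. LBR, a lamin receptor with the same reductase activity, was at 3.19 and 2.55 TPM in control and 3.38 and 1.89 TPM in KO+OE, so TM7SF2 exceeded it by 16.9 to 34.9 times in each library. MSMO1, the oxidase of the ring methyl groups, gave 13.9 and 11.1 TPM in control and 12.9 and 12.3 TPM in KO+OE. NSDHL, which removes the oxidised carbon, gave 29.4 and 26.8 TPM in control and 30.9 and 24.6 TPM in KO+OE. In each of these genes the groups overlapped. HSD17B7, the reductase that works after NSDHL, was lower in both KO+OE libraries (7.96 and 7.55 TPM) than in both control libraries (8.51 and 9.22 TPM). The isomerase EBP was at 111 and 113 TPM in control and 110 and 122 TPM in KO+OE. SC5D, the desaturase that follows EBP, was at 1.62 and 2.47 TPM in control and 2.70 and 2.08 TPM in KO+OE. EBP thus exceeded SC5D by 40.7 to 68.6 times although they act one after the other. DHCR7, a last reductase of the route, was at 127 and 125 TPM in control and 123 and 121 TPM in KO+OE, which put both KO+OE libraries below both control libraries. Over the 11 genes the summed level was 1125 TPM in both control libraries and 1143 and 1132 TPM in KO+OE, so both KO+OE sums lay above the control sums.

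Within the sensing machinery, the factor of the cholesterol branch was the more abundant. SREBF2, encoding SREBP2, was at 103 and 104 TPM in control and 104 and 99.9 TPM in KO+OE, while SREBF1, encoding SREBP1, was at 21.5 and 26.5 TPM in control and 19.8 and 22.5 TPM in KO+OE. The ratio of SREBF2 to SREBF1 was 3.94 to 5.26 across the libraries, without separating the groups. SCAP, the escort, was at 60.2 and 58.8 TPM in control and 55.7 and 60.5 TPM in KO+OE. INSIG1, the sterol-dependent anchor and itself a known target of SREBP, was at 22.9 and 18.0 TPM in control and 19.5 and 19.8 TPM in KO+OE. The 4 genes summed to 207.5 and 207.8 TPM in control and to 199 and 203 TPM in KO+OE, so both KO+OE sums lay below the control sums. All 4 sensing genes had a fold change below 0 with overlapping groups, and none passed an unadjusted p of 0.05 by limma (lowest adjusted p 0.942). Over all genes tested, 6710 of 12319 also fell below 0.

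In the synthesis of fatty acids, 1 of the 4 genes separated the groups. Of all genes tested, 14.5% had both KO+OE libraries above both control libraries and 19.6% had both below. ACLY, which releases acetyl-CoA from citrate, was at 129 and 126 TPM in control and 132 and 127 TPM in KO+OE. FASN, the fatty acid synthase, was the second most abundant of the 34 genes, at 361 and 365 TPM in control and 349 and 362 TPM in KO+OE. Both overlapped. ACACA, the cytosolic acetyl-CoA carboxylase that makes malonyl-CoA for synthesis, was at 23.0 and 27.0 TPM in control and 25.8 and 22.0 TPM in KO+OE. ACACB, the carboxylase at the mitochondrial surface whose malonyl-CoA restrains fatty acid oxidation, was at 1.75 and 2.21 TPM in control and 2.66 and 3.16 TPM in KO+OE. ACACB was therefore higher in both KO+OE libraries, and ACACA exceeded it by 12.2 and 13.1 times in the control libraries and by 6.96 and 9.69 times in the KO+OE libraries. Its log2 fold change, 0.39 ± 0.17 (SE, n = 2 per group; 95% confidence interval -0.04 to 0.82), was the highest of the 34 genes but had an adjusted p of 0.931 by limma.

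Among the genes that lengthen and desaturate fatty acids, ELOVL6 stood out by 1 library. SCD, the stearoyl-CoA desaturase, was at 174 and 173 TPM in control and 178 and 166 TPM in KO+OE. FADS2, which starts the desaturation of polyunsaturated fatty acids, was at 271 and 279 TPM in control and 281 and 275 TPM in KO+OE. Its neighbour and partner FADS1 was at 30.5 and 31.6 TPM in control and 30.4 and 28.8 TPM in KO+OE. FADS2 exceeded FADS1 by 8.87 and 8.82 times in the control libraries and by 9.23 and 9.56 times in the KO+OE libraries. FADS1 was lower in both KO+OE libraries, but the closest libraries of the groups were at 30.5 and 30.4 TPM. ELOVL1, an elongase of very long chains, was at 19.7 and 25.0 TPM in control and 20.9 and 18.5 TPM in KO+OE. ELOVL5, the elongase of polyunsaturated chains, was at 41.7 and 35.2 TPM in control and 38.5 and 36.8 TPM in KO+OE. Neither elongase separated the groups.

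ELOVL6, which extends palmitate to stearate, was at 8.74 TPM in control replicate 1 and at 25.5 TPM in control replicate 2, with 9.66 and 9.43 TPM in KO+OE. The other libraries lay within a narrow range, and control replicate 2 was more than 2 times the next highest. Of all genes tested 1.61% had a highest library over 2 times the next, and ELOVL6 was 1 such gene among the 34. ACSL3, an acyl-CoA synthetase of the endoplasmic reticulum and lipid droplets, was likewise high in that library, at 2.02 and 4.14 TPM in control and 2.04 and 2.16 TPM in KO+OE. ACSL4, the synthetase that prefers arachidonate, was at 1.91 and 2.62 TPM in control and 2.02 and 2.13 TPM in KO+OE. Control replicate 2 was the highest library in 12 of the 34 genes and in 27.1% of all genes tested. The log2 fold change of ELOVL6 was -0.61 (95% confidence interval -1.80 to 0.58), and it became 0.11 without control replicate 2 and -1.33 without control replicate 1 (limma, lowest adjusted p 0.242). For ACSL3 it was -0.35 (-1.06 to 0.37), and it became 0.04 without control replicate 2. What set that library apart for these genes was not tested.

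**Figure D2:**
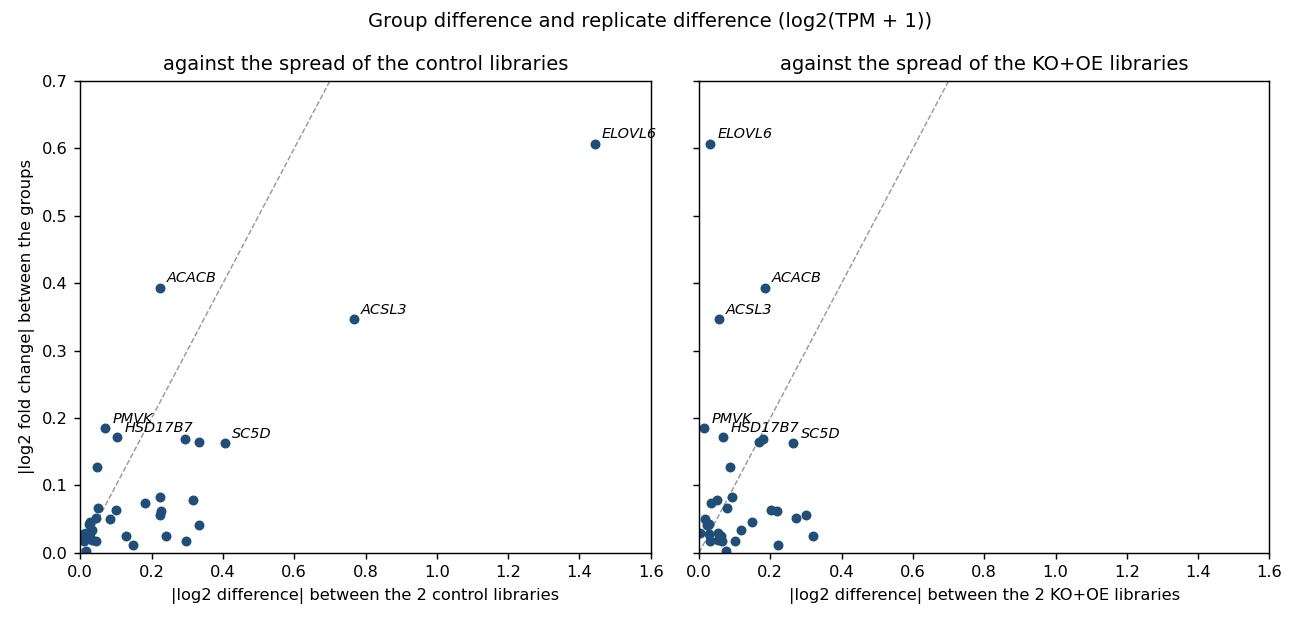
Absolute log2 fold change between the groups (vertical axis) against the absolute log2 difference between the 2 libraries of 1 group (horizontal axis; control on the left, KO+OE on the right), on the log2(TPM + 1) scale, 1 point per gene. Points above the dashed line differ more between groups than between replicates; ELOVL6 and ACSL3 lie far below it for the control libraries and above it for the KO+OE libraries.

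Across the 34 genes, the groups could not be told apart by limma. At an adjusted p under 0.05 there were 0 genes of the 34, where 0.00812% of the genes tested, a single gene, passed. At an unadjusted p under 0.05 there was 1 of the 34, PMVK, against 5.33% of the genes tested. Split by direction, that was 0 higher in KO+OE against 2.26% of the genes tested and 1 lower against 3.06%. In 4 genes (ACACB, FDFT1, FDPS and SQLE) both KO+OE libraries were above both control libraries, against 14.5% of the genes tested. In 4 others (DHCR7, FADS1, HSD17B7 and PMVK) both were below, against 19.6%. Each of these sets of 4 is 11.8% of the 34 genes, so neither share exceeded that of all genes tested.

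Fold changes were below 0 in 22 genes and above 0 in 12, which is 35.3% above 0 against 45.5% of all genes tested. Their median was -0.03 against -0.01 over all genes tested. With median-ratio scaling it was -0.019 against -0.00055 over all genes tested, and with quantile scaling -0.014 against 0.0010. The median absolute log2 fold change was 0.051 against 0.082, but these genes lie at higher levels. At 1 to 5 TPM it was 0.163 against 0.139 for all genes of that level. From 5 to 50 TPM it was 0.065 against 0.075, and above that 0.029 against 0.033. In 14 genes the fold change was smaller than the difference between the replicates in both groups, and in 7 it exceeded both, which is 41.2% and 20.6% of the 34 against 41.8% and 22.3% of all genes tested. The 95% confidence interval lay within a 1.2-fold change in either direction for 15 of the 34 genes, within 1.5-fold for 30 and within 2-fold for 32, against 26.5%, 71.0% and 92.6% of all genes tested. ELOVL6 and ACSL3 were the exceptions to the last. The shares of intervals were not matched for level. The intervals thus bound most of these differences, while a smaller one was not detectable with 2 libraries per group.

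**Figure D3:**
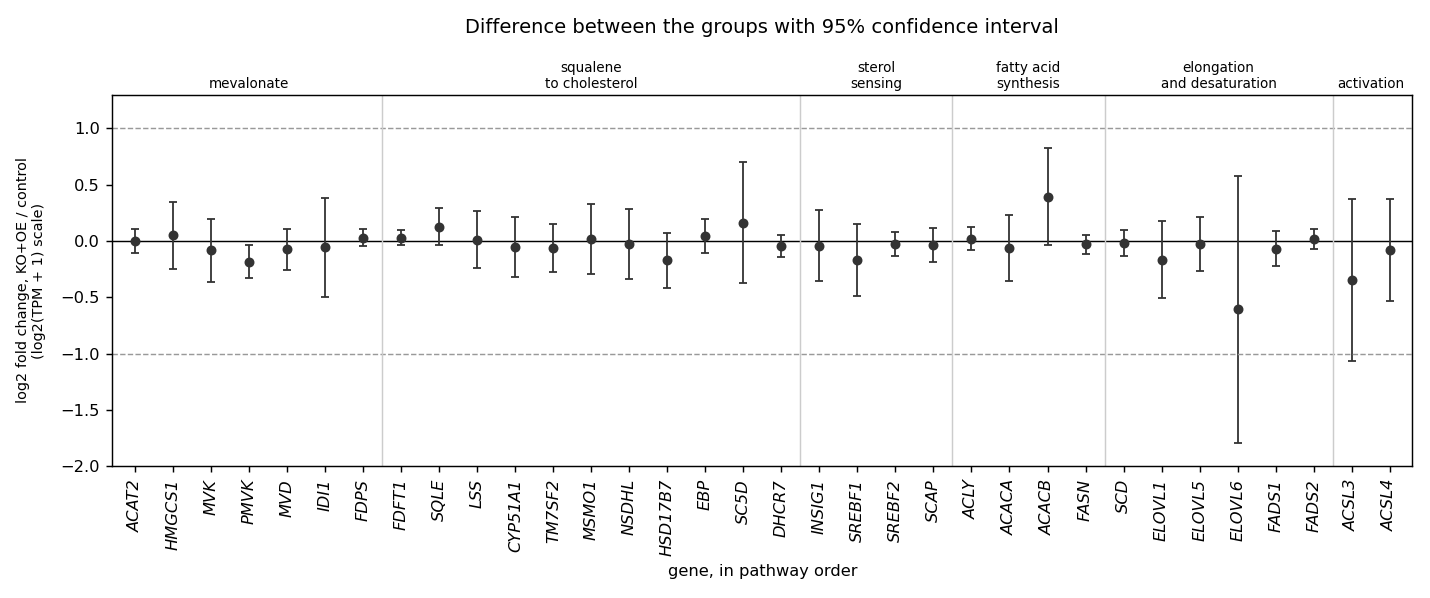
Log2 fold change of KO+OE over control (log2(TPM + 1) scale) for the 34 genes in pathway order, with 95% confidence intervals from limma; the dashed lines mark a 2-fold change. All intervals but those of ELOVL6 and ACSL3 lie inside the dashed lines, and PMVK alone has an interval that leaves out 0 (-0.33 to -0.04).

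The summed levels of the branches lay close together. The 22 cholesterol genes summed to 1974 and 1950 TPM in control and to 1975 and 1957 TPM in KO+OE, and the 12 fatty acid genes to 1064 and 1096 TPM in control and to 1071 and 1053 TPM in KO+OE. Both sums overlapped between the groups. The sums of the squalene step, held mostly by FDFT1, of the sensing step and of the fatty acid synthesis step did not. That last step summed to 514.8 and 520.1 TPM in control and to 509.3 and 514.1 TPM in KO+OE. Its KO+OE sums were thus below the control sums, with the closest libraries at 514.8 and 514.1 TPM. Taken against the nominal total of the TPM scale, which the columns fall slightly short of, the 34 genes made up 0.301% to 0.305% in each library.

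Further genes of these pathways were counted in the same way. Of 22 further sterol genes 18 were tested, 8 higher and 10 lower in KO+OE, with 0 at an adjusted p under 0.05 by limma and 1 at an unadjusted p under 0.05. That gene was SCARB1, a lipoprotein receptor, at 56.6 and 55.8 TPM in control and 51.7 and 48.0 TPM in KO+OE, with a log2 fold change of -0.17 and an adjusted p of 0.928. Of 24 further fatty acid synthesis genes 15 were tested, 9 higher and 6 lower, and of 12 fatty acid oxidation genes all 12 were tested, 5 higher and 7 lower. In both of these lists 0 genes passed either an adjusted or an unadjusted p of 0.05 by limma.

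The level of a synthesis gene went along with the GC content of its transcript. Across the 34 genes, Spearman's rho between mean TPM and GC content of the GENCODE transcript was 0.52, against 0.27 over 12147 genes tested with a value, and with transcript length it was -0.29 against -0.19. These are correlations across genes of the same 4 libraries, given as a description. The 10 genes with at most 45% GC had a median of 8.84 TPM, the 11 from 45% to 55% one of 30.3 TPM and the 13 above 55% one of 62.9 TPM. FDFT1 and ACACB departed from this order, with FDFT1 the highest gene at a middle GC content and ACACB among the lowest.

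**Figure D4:**
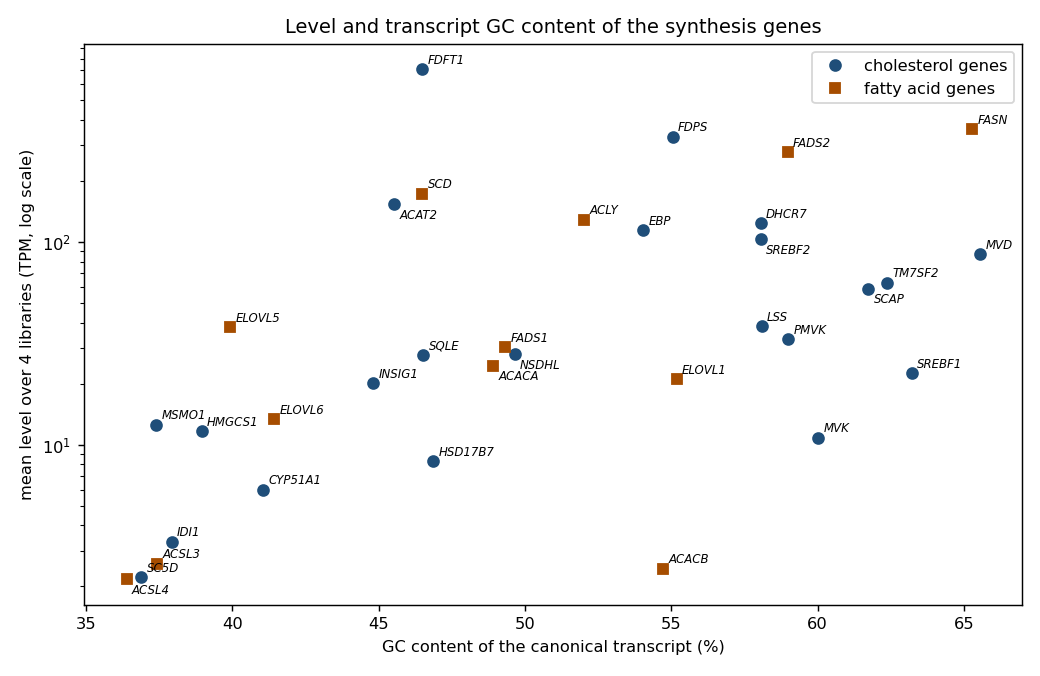
Mean level over the 4 libraries (TPM, log axis) against GC content in percent of the canonical transcript for the 34 genes, cholesterol genes as circles and fatty acid genes as squares. Levels tend to be higher at higher GC content (Spearman's rho 0.52), with FDFT1 far above and ACACB far below the genes of like GC content.

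Some of these values share sequence with other genes. The table holds 22 pseudogene or other copy rows for 8 of the genes, 18 of them at 0 in every library and none above 0.23 TPM. Exons of 6 genes overlap, on the opposite strand, those of a gene with a mean of at least 1 TPM, and no source used here says whether strand was used in counting. Of the exon bases of ACAT2, 17.2% overlap those of TCP1, which was at 51.1 to 61.4 TPM. ACLY is crossed by the antisense gene AC125257.2, listed at 133 and 172 TPM in control and 201 and 104 TPM in KO+OE. The others were FADS1 and FADS2, which overlap each other, MVK with MMAB, and SREBF1 with RAI1. With any gene above 0 on either strand counted, 16 of the 34 genes were overlapped. The largest overlaps on the same strand were 68.2% of the exon bases of CYP51A1, with a gene at or below 0.31 TPM, and 36.4% of those of EBP, with a gene at 1.89 to 3.09 TPM. HMGCS1 was overlapped on the opposite strand in 37.7% of its exon bases by a gene at or below 0.28 TPM. How far shared bases raise or lower the levels was not tested.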

How the data were processed

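The labels list HISAT2, Subread with featureCounts, DESeq2 and the build hg38 in the submitters' processing notes, without versions or settings. The table deposited by the authors holds 60671 Ensembl genes in 4 libraries with values taken to be TPM, since each column summed to between 986853 and 987078 and the header names no unit. TPM keeps no sequencing depth, so the depth behind a value is unknown and no counting interval is given. The authors' DESeq2 calls were not used. No column of further per-sample values was left out.

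Values were transformed as log2(TPM + 1), genes with a mean under 1 TPM were left out (12319 remained), and KO+OE was compared with control by limma 3.58.1 in R 4.3.3 with a trended prior and Benjamini-Hochberg adjustment over all genes tested, at a threshold of 0.05. Fold changes on this scale understate those of low genes. DESeq2 was not rerun, because the values are not counts. Replicate numbers did not pair the libraries (correlation of their deviations -0.05). The members, the other gene lists and the tests were chosen with earlier results of these data known. All 34 members are named, in pathway order; of the other lists, genes with an unadjusted p under 0.05 and LBR, with NUDT21 and the marker genes. Alternatives were the pseudocount, the filter, the scaling, the trend, a replicate block and leaving out each library. Transcript GC content and exon overlaps were taken from GENCODE 44 mapped to GRCh37, another build than that of the table, and used without coordinates. Protein sequences of paralogs were not analysed here.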

Additional observations from a re-analysis of the deposited data

How the results depend on the processing

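At an adjusted p under 0.05 by limma, 0 of the 34 genes passed under each of the 12 alternatives (lowest adjusted p 0.242, ELOVL6 without control replicate 1). The 1 gene of the whole table that passed was lost with a pseudocount of 0.1 or 5, with no filter on low values, with a filter at a mean of 5 TPM (which leaves 29 of the 34 genes), with quantile normalization and with a replicate block, each giving 0 genes (670, 634, 1314, 412, 649 and 673 at an unadjusted p under 0.05), and leaving out a library gave 0 to 1. The replicate block left 1 of the 34 genes at an unadjusted p under 0.05, PMVK (limma adjusted p 0.873), and changed no other call. Leaving out a library gave 0 to 3 of the 34 genes at an unadjusted p under 0.05: ELOVL6, ACSL3 and ELOVL1 without control replicate 1, PMVK and MVD without control replicate 2 and 0 without either KO+OE library. Without the trend ACACB replaced PMVK. Median-ratio rescaling moved the log2 ratio of the summed cholesterol genes from 0.0028 to 0.016.

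Apart from leaving out a library, the only change of sign was SCD under quantile normalization (0.00059). With a library left out, 23 of the 34 genes changed sign at least once. Their log2 fold changes then ran from -0.035 to 0.042 for ACAT2, -0.085 to 0.19 for HMGCS1, -0.19 to 0.029 for MVK, -0.16 to 0.017 for MVD, -0.21 to 0.093 for IDI1, -0.098 to 0.12 for LSS, -0.17 to 0.037 for TM7SF2, -0.13 to 0.17 for MSMO1, -0.18 to 0.13 for NSDHL, -0.030 to 0.12 for EBP, -0.040 to 0.37 for SC5D, -0.21 to 0.13 for INSIG1, -0.054 to 0.0043 for SREBF2, -0.093 to 0.025 for SCAP, -0.0077 to 0.046 for ACLY, -0.17 to 0.050 for ACACA, -0.068 to 0.032 for SCD, -0.33 to 0.0018 for ELOVL1, -0.14 to 0.095 for ELOVL5, -1.33 to 0.11 for ELOVL6, -0.0041 to 0.039 for FADS2, -0.73 to 0.037 for ACSL3 and -0.24 to 0.079 for ACSL4. The cause was not tested. With 2 libraries per group and no known depth, differences inside the confidence intervals could not be resolved.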
